A study of Rattus norvegicus with 9 samples.

Results

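The membrane-targeted form of the protein Set-β was compared with its wild-type form on 6 of the 9 arrays of the series, 3 labelled myr_Set and 3 labelled wt_Set. The arrays were chosen by their titles, and the differences were described over all genes that the array annotation pairs with a single symbol. Each gene was represented by its transcript cluster of highest mean, which gave 18166 genes on the array and 10518 that passed the filter on low signal. All samples came from Sprague Dawley rats at postnatal day 4. Retinal ganglion cells, the neurons whose axons form the optic nerve, were purified by immunopanning, in which an antibody on a dish holds the wanted cells, and electroporated with myr-Set-β, with wild-type Set-β or, as the control on the other 3 arrays, with mCherry, and every group also received the fluorescent reporter pMAX-GFP. Reporter-positive cells were sorted the next day and then grown on laminin until RNA was isolated, 3 days after transfection. Each group therefore holds neurons that survived purification, electroporation and sorting, away from their retinal and brain targets. The titles call the 3 arrays of a group biological replicates without saying whether they came from separate litters or cultures, so any p-value here reflects spread between arrays that could be technical.

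Set, also known as TAF-I or I2PP2A, is a histone chaperone found mainly in the nucleus, where it binds core histones and shields them from acetylation. It is also an inhibitor of protein phosphatase 2A, a serine and threonine phosphatase built from catalytic, scaffold and regulatory subunits. Myristoylation attaches a fatty acid to the start of a protein and helps to hold it at membranes, so that the myr form carries the same protein to a different place in the cell. In developing retinal ganglion cells the capacity for axon growth declines around birth, and Set-β has been studied as a regulator of that capacity. The comparison of the forms asks which transcripts depend on where Set-β sits, and the amount of transfected protein was not analysed here.

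No transcript cluster separated the forms beyond the spread between arrays. Of 18343 clusters tested with limma on log2 intensity, 0 (0%) passed a Benjamini-Hochberg adjusted p of 0.05, and the smallest adjusted p was 0.9998. At an unadjusted p below 0.05 the fit named 208 clusters (1.13%), 104 with a higher and 104 with a lower mean in myr_Set, where 917 would come from the nominal rate. Of the single-symbol genes, 410 (3.9%) had groups that did not overlap, 263 with all myr_Set arrays above all wt_Set arrays (2.5%) and 147 with all below (1.4%). That split depended on the scaling: quantile normalization gave 238 above (2.26%) and 269 below (2.56%), and cyclic loess 267 (2.54%) and 243 (2.31%). With 3 arrays against 3, labels given at random would leave the groups of a gene apart, in either direction, with a probability of 0.1. The 3.9% seen as deposited lay below that. Among all single-symbol genes, 41 of 10518 (0.39%) lay below an unadjusted limma p of 0.05, 26 of them higher in myr_Set (0.247%) and 15 lower (0.143%). The values below are therefore descriptions of these arrays, and the words higher and lower refer to group means.

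The spread between arrays was larger in myr_Set. The median standard error of the log2 difference was 0.25, and the median 95% confidence interval reached 0.56 to either side of the difference. For 8633 genes (82.1%) that interval lay within 1 log2 unit of 0, so a change of more than 2-fold lay outside the fitted interval of those genes, taken gene by gene. Only 9 genes differed by more than 1 log2 unit and 160 by more than 0.5. The median SD of a gene was 0.16 across the wt_Set arrays, 0.34 across the myr_Set arrays and 0.27 across the mCherry arrays, and the SD was larger in myr_Set than in wt_Set for 78.5% of genes.

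The larger spread in myr_Set followed the abundance of the transcripts. In the highest of 10 equal bins of genes by mean level, the median log2 intensity was 9.29, 9.36 and 9.31 on the wt_Set arrays and 8.46, 9.39 and 9.93 on myr_Set arrays 1, 2 and 3. The corresponding medians in the lowest bin were 6.70, 6.71 and 6.70 in wt_Set and 6.73, 6.70 and 6.78 in myr_Set. Abundant transcripts were thus low on myr_Set array 1 and high on array 3, while array 2 lay beside the wt_Set arrays. The signal range of an array, taken between its 10th and 90th percentiles of log2 intensity, was 4.12, 4.21 and 4.14 in wt_Set and 3.82, 4.18 and 4.46 in myr_Set. Its group means were equal at 4.16 (SD 0.0471 and 0.318, n = 3 each), with a two-sided exact permutation p of 1, where 0.1 is the smallest that 3 arrays against 3 can give. The 3 mCherry arrays had ranges of 4.54, 4.29 and 4.53.

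**Figure D1:**
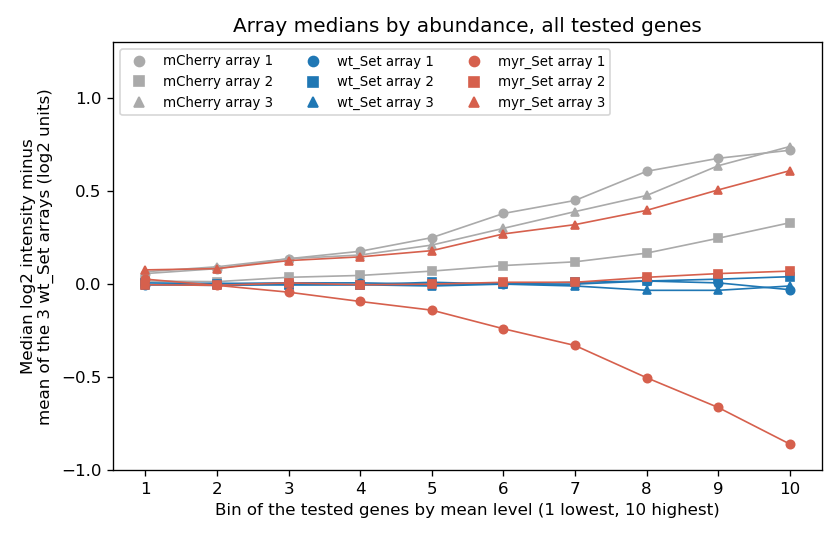
Median log2 intensity of 10 equal bins of the 10518 tested genes, ordered by mean level over the 9 arrays, on each array minus the mean of the 3 wt_Set arrays. The wt_Set arrays and myr_Set array 2 stay together, and in the highest bin myr_Set array 1 has a median of 8.46 and array 3 a median of 9.93, on opposite sides of the wt_Set medians of 9.29 to 9.36.

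This bracketing was common among the genes. In 4409 genes (41.9%) myr_Set array 1 lay below all wt_Set arrays and array 3 above them all, and the reverse held for 717 (6.82%). The correlation of log2 values over genes was 0.878 to 0.927 between wt_Set arrays, 0.654 between myr_Set arrays 1 and 3, and 0.913 to 0.938 between myr_Set array 2 and the wt_Set arrays, with genes as the points rather than independent samples. Without myr_Set array 1 the fit named 833 clusters at an unadjusted p below 0.05, 582 of them higher in myr_Set, and the median difference over all clusters was 0.14. Without array 3 it named 590, of which 361 were lower, and the median difference was -0.11. The adjusted count was 0 either way. Nasal and taste receptors, genes with no known role in these neurons, moved the opposite way. Over all 1398 on the array their medians were 5.81, 5.60 and 5.35 on myr_Set arrays 1 to 3 and 5.67, 5.51 and 5.51 in wt_Set. The 278 that passed the filter on low signal, and so had higher values by choice, had medians of 7.61, 7.41 and 6.94 in myr_Set and 7.40, 7.27 and 7.28 in wt_Set. The latter, called the passed-receptor median below, mark the signal that such genes can reach on an array and are no threshold of detection: 10461 of the 10518 tested genes lay above the median of all receptors on all 6 Set arrays. Whether signal range or background has a part in any difference between the forms was not tested. In such bulk samples, fewer cells of a type and less RNA per cell cannot be told apart.

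The deposited annotation held no cluster with the symbol Set, so neither endogenous nor transfected Set was read directly and the labels could not be checked on it. Setl2, whose symbol marks it as a copy related to Set, had the largest moderated t of all genes whose groups did not overlap. Its log2 intensity was 7.22, 7.00 and 7.69 in wt_Set, 8.05, 8.07 and 8.19 in myr_Set, and 7.91, 8.17 and 7.75 in mCherry. The 3 myr_Set arrays lay above all wt_Set arrays and close to each other, and the mCherry arrays lay on the side of myr_Set. Of the wt_Set arrays, 1 and 2 lay below their passed-receptor median. The difference between the forms was 0.80 ± 0.21 (SE), with a 95% interval of 0.32 to 1.28 and an unadjusted limma p of 0.00432 that became 1 after adjustment. Whether the probes of this cluster also bind Set was not analysed here, so it is not read as the level of Set.

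Setsip, a second Set-related gene, did not show that separation. It measured 10.34, 9.98 and 9.99 in wt_Set, 9.30, 10.04 and 10.67 in myr_Set and 10.70, 10.72 and 10.85 in mCherry. The myr_Set arrays spanned the wt_Set arrays on both sides. Setl1, a further copy, lay at 3.05 to 3.09 in wt_Set and 2.93 to 3.15 in myr_Set and did not pass the filter on low signal.

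The acidic Anp32 proteins, which work with Set as phosphatase inhibitors and histone-binding factors, shared the bracketing pattern. Anp32a was 8.06, 7.95 and 8.05 in wt_Set and 7.31, 8.34 and 9.62 in myr_Set. Anp32b was 10.24, 10.25 and 9.60 in wt_Set against 9.17, 10.39 and 10.93, and Anp32e 8.44, 8.28 and 8.29 against 7.45, 8.64 and 9.55. In all 3 genes myr_Set array 1 was the lowest of the 6 arrays and array 3 the highest. The nucleosome assembly proteins, which carry histones to chromatin in the way Set does, did likewise for Nap1l1 (10.83, 10.55 and 10.20 in wt_Set, 9.55, 11.18 and 11.55 in myr_Set) and Nap1l4 (9.77, 9.55 and 9.50 against 9.21, 9.67 and 10.07). Prothymosin alpha (Ptma), a small acidic histone-binding protein, was 11.20, 11.26 and 11.46 in wt_Set and 10.45, 11.35 and 11.64 in myr_Set.

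Over the list of Set and its relatives, 14 of 21 tested members had the higher mean in myr_Set and the median difference was 0.13, against 53.4% of genes higher and a median of 0.01 over all genes tested. The list also holds Rac1, Ythdc1 and Tcf20, which are not histone chaperones. Of its 21 tested members, 1 had groups that did not overlap, Setl2, beside the 2.5% of all genes with myr_Set wholly above. The list median was 8.71, 8.37 and 8.32 in wt_Set and 8.12, 8.42 and 8.93 in myr_Set, so its arrays overlapped.

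Protein phosphatase 2A, the enzyme that Set inhibits, had a list median difference of 0.00 over 25 of its 30 genes. Among the catalytic and scaffold subunits, listed with the related phosphatases Ppp4c and Ppp6c, Ppp2cb was 8.76, 9.14 and 9.44 in wt_Set and 7.75, 9.22 and 9.62 in myr_Set. The main scaffold Ppp2r1a was 9.06, 9.17 and 9.02 against 8.29, 9.18 and 9.77. Only 1 of these 5 tested genes had the higher mean in myr_Set. Both genes named bracket the wt_Set arrays, with array 1 low and array 3 high.

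Among the regulatory subunits, which direct the phosphatase to its substrates, 1 of 13 tested had groups that did not overlap, Ppp2r2c, beside 2.5% of all genes wholly higher, and with cyclic loess none did. This brain-enriched B subunit was 6.46, 6.74 and 6.22 in wt_Set, 6.80, 6.95 and 6.83 in myr_Set and 7.03, 6.84 and 6.80 in mCherry. The lowest myr_Set array stood just above the highest wt_Set array, and all 6 Set arrays lay below the passed-receptor median of their array. The difference was 0.39 ± 0.18 (95% interval -0.01 to 0.79). Ppp2r5e, a B56 subunit, was 7.11, 7.16 and 7.09 in wt_Set and 6.28, 6.45 and 7.56 in myr_Set, a difference of -0.36 ± 0.31 with myr_Set arrays on both sides of wt_Set.

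Of the genes that inhibit or mature the phosphatase, 6 of 7 tested had the higher mean in myr_Set, with a median difference of 0.06. Ppme1, the methylesterase that acts on the catalytic subunit, was 9.43, 9.16 and 8.81 in wt_Set and 8.29, 9.25 and 9.90 in myr_Set. Its opposing methyltransferase Lcmt1 was 8.07, 8.15 and 7.66 against 7.46, 8.18 and 8.29, and the activator Ptpa 8.35, 8.46 and 8.28 against 7.89, 8.46 and 8.69. All 3 genes overlapped between the forms.

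**Figure D2:**
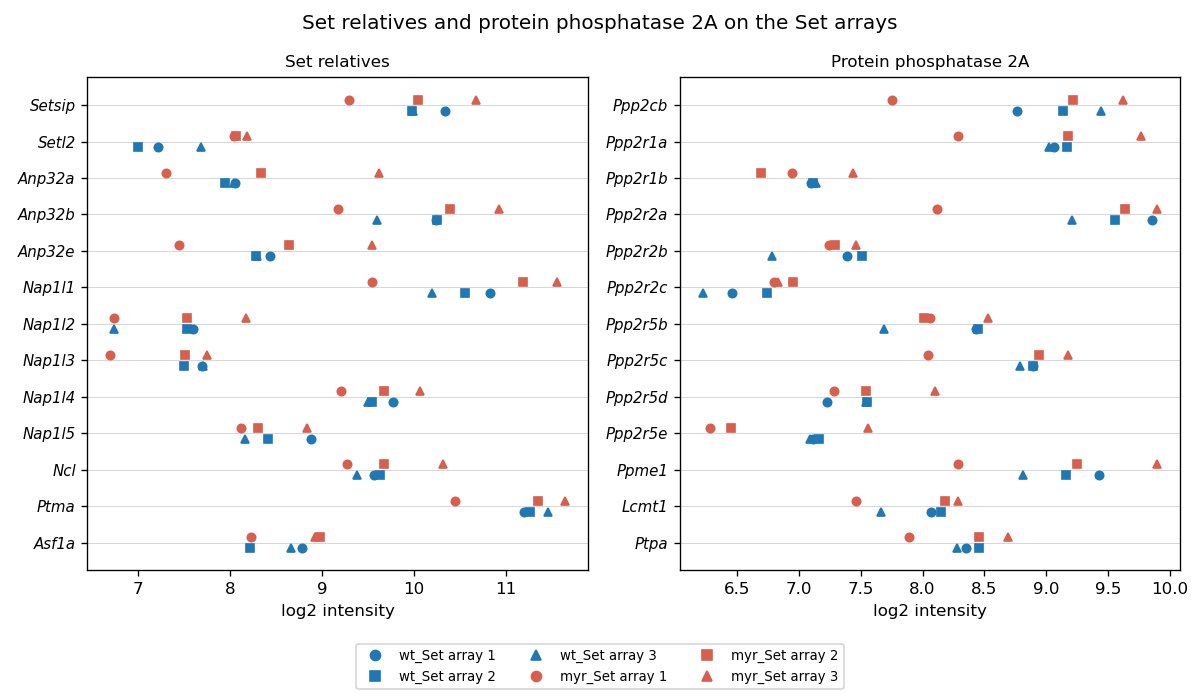
Log2 intensity of 13 Set relatives and 13 protein phosphatase 2A genes on the 3 wt_Set and 3 myr_Set arrays, 1 marker per array. For most genes the myr_Set markers spread to both sides of the wt_Set markers, as for Ppp2r1a (8.29 to 9.77 against 9.02 to 9.17), while Setl2 and Ppp2r2c have all myr_Set markers to the right.

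Histone genes and the enzymes of histone acetylation, the process from which Set shields histones, also had small list differences. The histone list had a median of 0.09 with 15 of 26 tested members higher in myr_Set and 1 wholly above, and histone acetylation a median of 0.01 with 20 of 37 higher and 3 wholly above (2.5% of all genes), which became 2 with quantile normalization and 1, Ncoa3, with cyclic loess. The coactivator acetyltransferase Ncoa3 was 7.18, 7.15 and 7.14 in wt_Set and 7.27, 7.38 and 7.99 in myr_Set, with a difference of 0.39 ± 0.21 that was 0.17 without myr_Set array 3. The cytoplasmic tubulin deacetylase Hdac6 was 6.78, 6.87 and 6.86 against 6.88, 6.99 and 7.25 (0.20 ± 0.15). The mitochondrial deacetylase Sirt3 was 7.40, 7.28 and 7.11 against 7.57, 7.40 and 7.46 (0.21 ± 0.15). In each of these the groups were apart by a narrow gap, and the nearest arrays of Sirt3 were equal to 2 decimals. Ncoa3 and Hdac6 lay below the passed-receptor median on all 3 wt_Set arrays and on 2 of the 3 myr_Set arrays. The class I deacetylases overlapped, with Hdac1 at 7.34, 7.22 and 7.35 in wt_Set and 6.47, 7.56 and 8.13 in myr_Set, and Hdac2 at 8.11, 8.49 and 7.92 against 7.62, 8.49 and 8.67.

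The 15 genes with the largest moderated t among those wholly higher in myr_Set had differences of 0.37 to 0.80. Tdg, the thymine DNA glycosylase that starts repair of mismatched thymine and removes oxidised methylcytosine, was 6.87, 6.67 and 6.60 in wt_Set and 7.22, 7.16 and 7.55 in myr_Set. Its difference was 0.60 ± 0.18 (95% interval 0.19 to 1.01), and the mCherry arrays stood at 7.58, 7.23 and 7.34. The myr_Set arrays of Tdg were thus level with mCherry and the wt_Set arrays below both, and every wt_Set array of Tdg lay below its passed-receptor median.

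Mmut, the mitochondrial methylmalonyl-CoA mutase, was 6.53, 6.32 and 6.45 in wt_Set, 6.88, 6.89 and 6.83 in myr_Set and 6.84, 6.87 and 6.85 in mCherry, a difference of 0.43 ± 0.14. Its values sit below the passed-receptor median of every Set array, and an entry of a further cluster carries identical values. Mrps18a, a protein of the small mitochondrial ribosomal subunit family, was 8.39, 8.55 and 8.31 in wt_Set and 8.97, 8.66 and 9.22 in myr_Set, a difference of 0.53 ± 0.19, with mCherry at 8.99, 8.74 and 9.12.

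Tmed9, a cargo receptor of vesicles between the endoplasmic reticulum and the Golgi, was 6.57, 6.99 and 6.71 in wt_Set and 7.28, 7.07 and 7.54 in myr_Set (0.54 ± 0.20). Nenf, a secreted neurotrophic factor named neudesin, was 8.72, 8.57 and 8.82 against 8.92, 9.24 and 9.59 (0.54 ± 0.22). Tmem9, a protein of lysosomal and late endosomal membranes, was 8.06, 7.78 and 7.89 against 8.24, 8.22 and 8.43 (0.39 ± 0.16). In all 3 the myr_Set arrays stood above the wt_Set arrays, by a gap that was smallest for Tmed9, whose wt_Set arrays all lay below their passed-receptor median.

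Efhd2, a calcium-binding regulator of actin, was 7.29, 7.56 and 7.63 in wt_Set and 7.65, 8.29 and 8.48 in myr_Set, a difference of 0.65 ± 0.25. Gmeb1, a transcription factor of glucocorticoid-responsive elements, was 7.45, 7.12 and 6.95 against 7.56, 7.61 and 8.28 (0.64 ± 0.23). Rpgr, a ciliary protein whose human gene is mutated in retinitis pigmentosa, was 6.36, 6.48 and 6.14 against 6.52, 6.93 and 7.06 (0.51 ± 0.21). For Efhd2 and Rpgr the nearest arrays of the forms almost touched, and Rpgr lay below the passed-receptor median on all wt_Set arrays.

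The rest of the higher genes were Spa17 (0.60 ± 0.23), Zfp35 (0.52 ± 0.19), Ankmy2 (0.48 ± 0.18), Dlg5l15 (0.48 ± 0.20) and Hand1 (0.37 ± 0.16). Spa17 encodes a sperm surface protein, Zfp35 a zinc finger factor, and Hand1 a transcription factor of heart and trophoblast development. Hand1, Zfp35, Spa17 and Ankmy2 lay below the passed-receptor median on all 3 wt_Set arrays. A further Hand1 cluster, which did not pass the filter, differed by -0.15. Dlg5l15 belongs to a family with many near-identical copies, and its other tested clusters differed by -0.15 to 0.35, so its own value is uncertain.

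**Figure D3:**
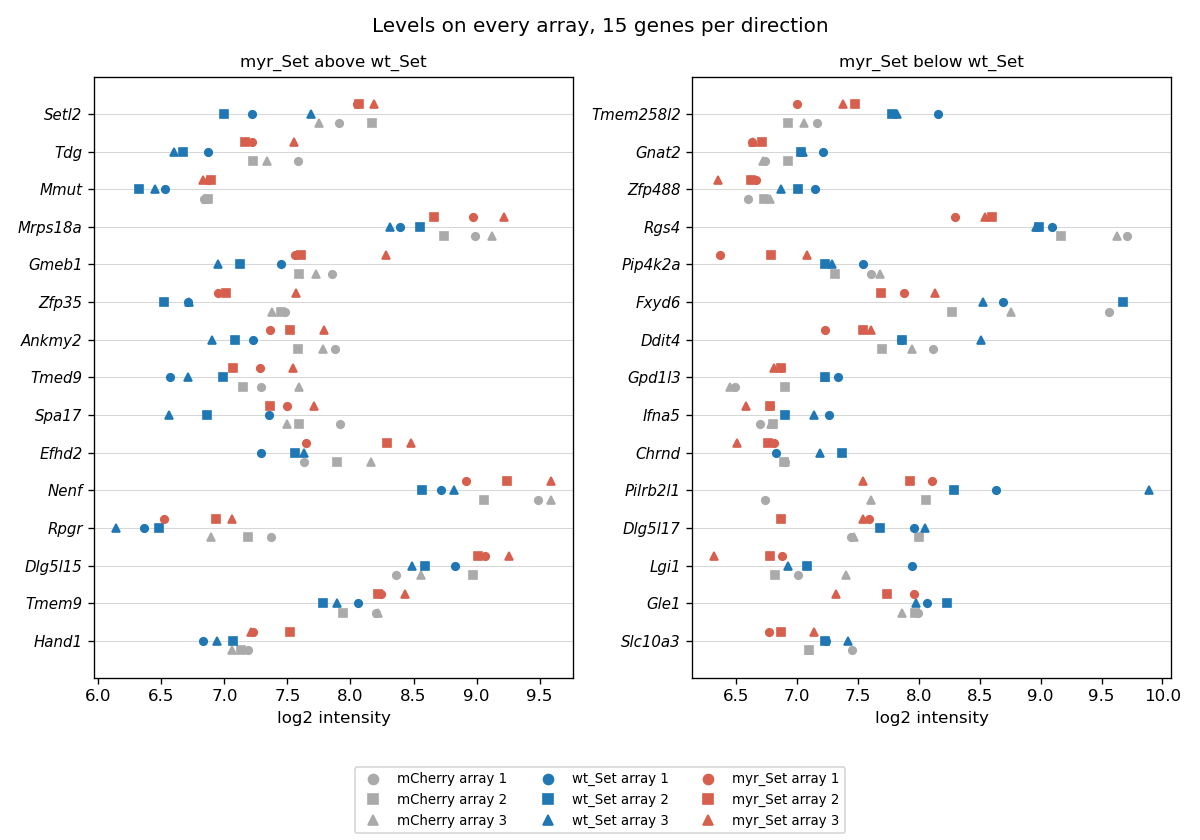
Log2 intensity on all 9 arrays for the 15 genes per direction with the largest moderated t among those whose myr_Set and wt_Set arrays do not overlap. In the left panel the mCherry markers of Tdg (7.23 to 7.58) and Mrps18a (8.74 to 9.12) lie with myr_Set, and in the right panel those of Rgs4 (9.17 to 9.71) lie beyond wt_Set.

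The 15 genes of the same rule on the lower side had differences of -0.37 to -1.08. Rgs4, a regulator that ends signalling by Gi and Gq proteins, was 9.09, 8.99 and 8.96 in wt_Set, 8.30, 8.60 and 8.54 in myr_Set and 9.71, 9.17 and 9.63 in mCherry. The 3 groups did not overlap, with mCherry highest and myr_Set lowest. The difference between the forms was -0.53 ± 0.19 (95% interval -0.95 to -0.10, unadjusted limma p 0.0202). Over the list of G-protein signalling regulators 5 of 13 tested members had the higher mean in myr_Set and the median was -0.04.

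Fxyd6, a small membrane protein that modulates the sodium and potassium pump, differed by more than 1 log2 unit. It was 8.69, 9.68 and 8.53 in wt_Set, 7.88, 7.69 and 8.13 in myr_Set and 9.56, 8.27 and 8.76 in mCherry, a difference of -1.06 ± 0.39 (95% interval -1.94 to -0.19). The wt_Set arrays spread by more than 1 log2 unit, with array 2 the highest.

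Ddit4, also called Redd1, is induced by stress and restrains the growth kinase complex mTORC1. It was 7.85, 7.86 and 8.51 in wt_Set, 7.23, 7.54 and 7.61 in myr_Set and 8.12, 7.70 and 7.94 in mCherry, a difference of -0.61 ± 0.23 (95% interval -1.13 to -0.10). The myr_Set arrays were the lowest of all 9. Pip4k2a, a lipid kinase of phosphoinositide metabolism, was 7.54, 7.23 and 7.29 in wt_Set and 6.37, 6.79 and 7.08 in myr_Set (-0.61 ± 0.22), but its other cluster, which did not pass the filter, differed by 0.58 in the opposite direction. Lgi1, a secreted synaptic protein linked to inherited epilepsy, was 7.94, 7.08 and 6.93 against 6.88, 6.78 and 6.32 (-0.65 ± 0.30), with wt_Set array 1 far above the others.

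Tmem258l2, a copy related to a subunit of the oligosaccharyltransferase, was 8.16, 7.78 and 7.82 in wt_Set and 7.00, 7.48 and 7.38 in myr_Set (-0.63 ± 0.19). Its mCherry arrays lay at 7.16, 6.93 and 7.06, so here wt_Set stood above the other groups. Pilrb2l1, related to paired immunoglobulin-like receptors, was 8.63, 8.29 and 9.89 against 8.11, 7.93 and 7.54 (-1.08 ± 0.45), with an mCherry range of 6.74 to 8.06. Its wt_Set array 3 stood far above the rest, and another cluster of the gene, which did not pass the filter, differed by 0.18.

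Gnat2, the transducin subunit of cone photoreceptors, was 7.21, 7.03 and 7.05 in wt_Set and 6.63, 6.71 and 6.64 in myr_Set (-0.44 ± 0.15). Every Set array of Gnat2 lay below the passed-receptor median, and the photoreceptor markers Sag, Rcvrn and Crx did not pass the filter on low signal. The same limit holds for Zfp488 (-0.47 ± 0.16), a factor of oligodendrocyte development, for Gpd1l3 (-0.42 ± 0.17) and for the interferon gene Ifna5 (-0.39 ± 0.16). The others of the lower 15 were Chrnd (-0.44 ± 0.18), a subunit of the muscle acetylcholine receptor, Dlg5l17 (-0.56 ± 0.25), Gle1 (-0.42 ± 0.19), which acts in messenger RNA export, and Slc10a3 (-0.37 ± 0.18).

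Among the 25% of genes with the highest means, 10 per direction were taken by size of the difference. Rps4y2, a copy of a ribosomal protein gene, was 8.05, 8.42 and 8.31 in wt_Set and 8.68, 10.47 and 9.17 in myr_Set (1.18 ± 0.51), with array 2 far above the others. Near-identical ribosomal copies can share probes, so this value is uncertain. Mrps12, a small-subunit mitochondrial ribosomal protein, was 8.01, 8.35 and 8.54 against 8.69, 8.61 and 8.96 (0.45 ± 0.21). Lancl1, a glutathione-binding protein that protects neurons from oxidative stress, was 8.09, 7.88 and 8.21 against 8.21, 8.32 and 8.92, with nearest arrays that met at 8.21 to 2 decimals (0.43 ± 0.23). Polr2d (0.39 ± 0.24), Ermap (0.31 ± 0.16), Mtf1 (0.19 ± 0.20) and Dalrd3 (0.14 ± 0.14) were apart by small gaps, and Nenf, Mrps18a and Dlg5l15 are given above. Polr2d was 0.12 without myr_Set array 3 and overlapped with quantile normalization. Ermap, Mtf1 and Dalrd3 overlapped both with quantile normalization and with cyclic loess.

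On the lower side of these abundant genes, Cadm3, a synaptic and axonal adhesion molecule, was 9.10, 8.84 and 8.83 in wt_Set, 8.46, 8.38 and 8.60 in myr_Set and 9.88, 8.78 and 9.31 in mCherry (-0.44 ± 0.26). Pcsk1n, the proSAAS inhibitor of a prohormone convertase, was 8.83, 8.84 and 8.84 against 8.03, 8.35 and 8.83 (-0.43 ± 0.26), so that myr_Set array 3 was level with wt_Set. Med31, a Mediator subunit, was 8.45, 8.51 and 8.40 against 7.57, 8.31 and 8.35 (-0.38 ± 0.25), and most of that difference came from array 1: without it the difference was -0.12.

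Pafah1b3, a catalytic subunit of a platelet-activating factor hydrolase, was 8.40, 8.35 and 8.64 in wt_Set and 8.19, 8.22 and 8.15 in myr_Set (-0.28 ± 0.17). Creb5, a transcription factor that binds cyclic AMP response elements, was 8.59, 8.62 and 8.58 against 8.38, 8.40 and 8.27 (-0.24 ± 0.15). Rtn2, a reticulon of the endoplasmic reticulum, was 8.37, 8.36 and 8.49 against 8.12, 8.16 and 8.15 (-0.26 ± 0.18). Celf5 (-0.26 ± 0.24), a neuronal splicing factor, and Slbpl (-0.20 ± 0.16) complete the group, and these were -0.13 without myr_Set array 1 and -0.11 without array 2. In each of Pafah1b3, Creb5 and Rtn2 the myr_Set arrays lay close together and, as deposited, below every wt_Set array. That separation depended on the scaling: Pafah1b3, Creb5, Rtn2 and Slbpl overlapped between the forms after either quantile or cyclic loess scaling. Celf5 stayed wholly lower in myr_Set under both.

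**Figure D4:**
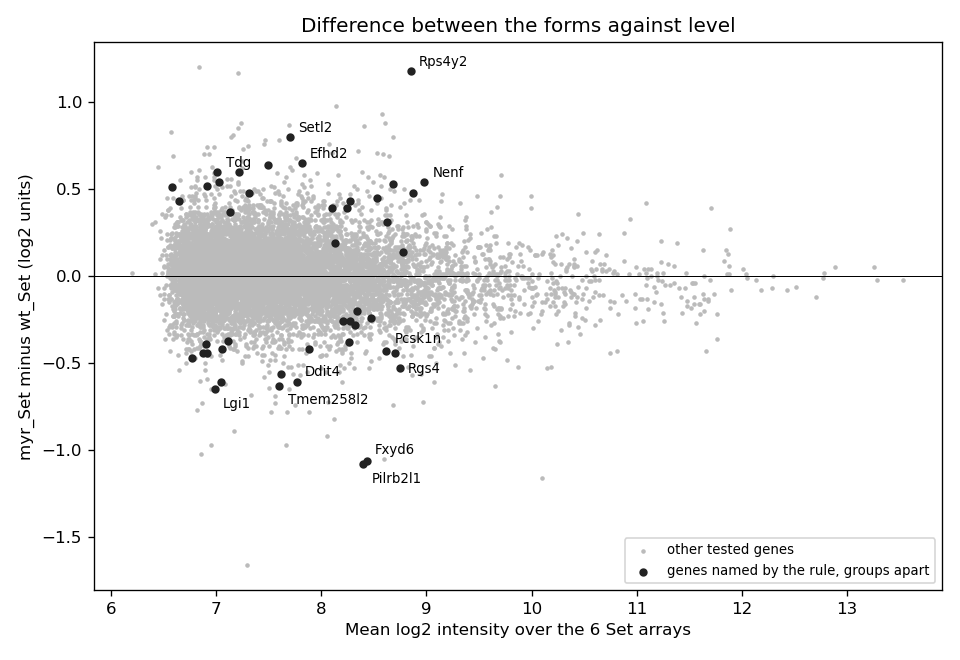
Difference in mean log2 intensity, myr_Set minus wt_Set, against the mean of the 6 Set arrays for the 10518 tested genes. Black points are the genes named by the rule, all with groups that do not overlap, and grey points are all other tested genes, which include every difference beyond 1 log2 unit except those of Rps4y2 (1.18), Fxyd6 (-1.06) and Pilrb2l1 (-1.08).

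The directions of the 30 genes with the largest moderated t did not change under any of the alternatives run. These genes were chosen for groups that did not overlap, so leaving out an array could not reverse them. With quantile normalization 25 of these 30 still had groups that did not overlap, and with cyclic loess 26. Genes with larger differences but overlapping or scattered arrays, singled out after their values were seen, were C1h9orf85 (-1.66 ± 1.03), H2aj (-1.16 ± 0.72) and Rap2a (1.20 ± 0.50). Rap2a, a small GTPase of the Ras family, was 6.18, 6.66 and 5.86 in wt_Set and 6.43, 7.34 and 8.54 in myr_Set. H2aj, a histone H2A variant, owed its value to wt_Set array 2 at 12.25, against 9.15 and 10.62 on the other 2 and 8.65, 9.50 and 10.40 in myr_Set.

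Across 46 lists of functional groups and cell type markers, none separated the forms. List median differences ran from -0.20 to 0.13, beside 0.01 over all genes, and only 2 exceeded 0.1 in size, the Set relatives at 0.13 and the photoreceptor and bipolar markers at -0.20, of which 6 genes were tested. No list had median levels that stayed apart between the 3 myr_Set and the 3 wt_Set arrays. In 30 of the 46 lists myr_Set array 1 was below all wt_Set arrays and array 3 above them all. The sign of the medians turned with these arrays: 41 of 46 medians were above 0 without myr_Set array 1, and 45 were below 0 without array 3.

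**Figure D5:**
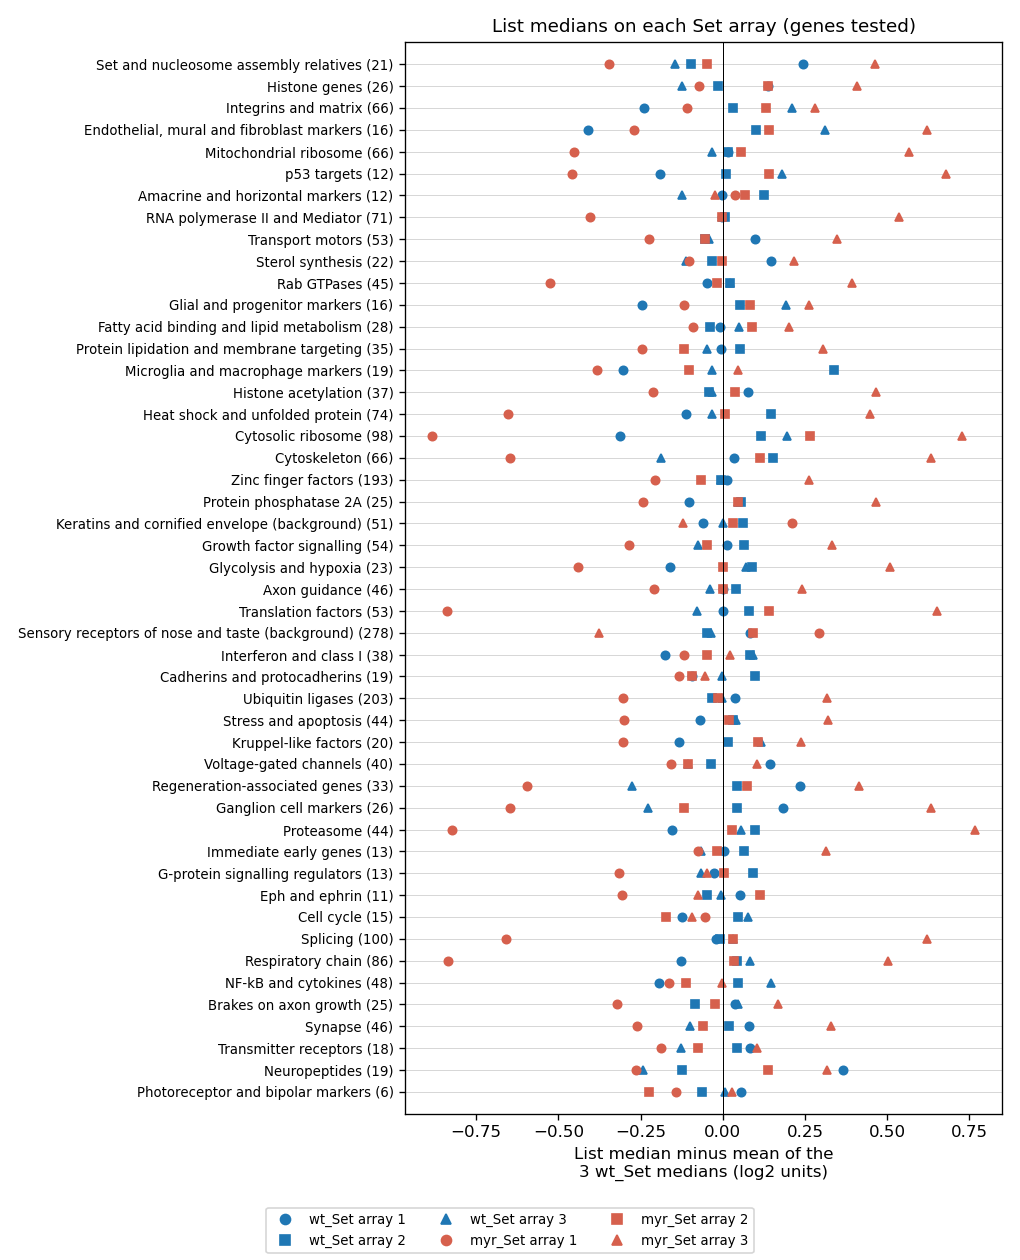
Median log2 intensity of each list on the 6 Set arrays, minus the mean of its 3 wt_Set medians, ordered by the median difference between the forms, with the number of genes tested in brackets. Myr_Set arrays 1 and 3 lie on opposite sides of wt_Set in most lists, for example 7.93 and 9.52 for the proteasome beside 8.60 to 8.85, and the nasal and taste receptors run the other way.

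Most genes of axon growth overlapped between the forms. Krüppel-like factors, transcription factors that set the growth capacity of these neurons, had 9 of 20 tested members higher and a median of -0.02. Klf4, a suppressor of axon growth, was 8.14, 8.48 and 8.52 in wt_Set and 8.05, 8.40 and 8.72 in myr_Set. Klf6 and Klf7, which favour growth, were 8.55, 8.59 and 8.28 against 8.0, 8.56 and 8.48, and 9.97, 9.99 and 9.37 against 8.96, 9.78 and 10.54. The myr_Set arrays surrounded or overlapped the wt_Set arrays in each.

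Regeneration-associated genes had a median of -0.03 with 15 of 33 tested higher. Gap43, a growth cone protein, was 11.54, 11.04 and 10.05 in wt_Set and 11.03, 11.29 and 11.57 in myr_Set. Stmn2, which acts on microtubules in growing neurites, was 11.62, 11.21 and 10.57 against 10.92, 11.32 and 11.77. Basp1, a growth cone membrane protein that is itself myristoylated, was 11.24, 10.84 and 10.83 against 10.07, 10.52 and 10.99, a difference of -0.44 ± 0.25 with overlapping arrays, and -0.21 without myr_Set array 1. Under both other scalings, quantile and cyclic loess, Basp1 and the transcription factor Jund were wholly lower in myr_Set and galanin (Gal) wholly higher. Of all genes, 2.56% and 2.31% were wholly lower under these scalings, and 2.26% and 2.54% wholly higher. For Gap43 and Stmn2 wt_Set array 3 was the lowest of the 6.

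Brakes on axon growth had a median of -0.05 over 25 tested genes and growth factor signalling 0.00 over 54. Among the brakes 1 gene, Ngfr, was apart as deposited, wholly higher beside 2.5% of all genes, and it overlapped under both other scalings. Tsc1 and Lrig2 were wholly lower under both of these, and Rtn4 with quantile normalization only. Of all genes, 2.56% were wholly lower with quantile normalization and 2.31% with cyclic loess. Rtn4, which encodes the myelin inhibitor Nogo, was 10.97, 10.89 and 11.21 in wt_Set and 9.65, 10.95 and 11.18 in myr_Set. Its difference of -0.43 ± 0.36 rested on array 1 and was 0.04 without it. Ngfr, the neurotrophin receptor p75, was 7.07, 7.13 and 7.02 against 7.17, 7.15 and 7.17, apart by a narrow gap and with all wt_Set arrays below their passed-receptor median. The growth cytokine Lif had a difference of 0.25 ± 0.18.

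Axon guidance (median 0.00, 22 of 46 higher), Eph and ephrin genes (-0.04, 4 of 11) and the cytoskeleton (0.01, 35 of 66) likewise gave small medians. Tenm3, a teneurin that guides visual wiring, was 8.12, 7.68 and 7.45 in wt_Set and 7.08, 7.28 and 7.57 in myr_Set (-0.44 ± 0.28), and a further cluster of the gene differed by -0.03. The neuronal tubulin Tubb3 was 10.11, 10.03 and 9.76 against 9.20, 10.01 and 10.65. The small GTPase Rhoa was 10.27, 10.56 and 10.64 against 8.71, 10.74 and 11.21. In each of these 3 genes the forms overlapped as deposited. Tenm3 was wholly lower in myr_Set with quantile normalization and with cyclic loess, beside 2.56% and 2.31% of all genes.

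Membrane traffic and protein lipidation, the machinery nearest to the change in the protein, also gave medians close to 0. Protein lipidation and membrane targeting had 18 of 35 tested members higher and a median of 0.01. The N-myristoyltransferases, which attach myristate, were 7.50, 7.78 and 8.27 in wt_Set and 7.30, 7.91 and 8.53 in myr_Set for Nmt1, and 7.46, 7.44 and 7.06 against 6.64, 7.42 and 7.89 for Nmt2. Rab GTPases had a median of 0.02 with 23 of 45 higher, and Rab1b, which acts between the endoplasmic reticulum and the Golgi, was 7.97, 8.26 and 8.72 against 7.45, 7.74 and 8.12 (-0.55 ± 0.24). A further Rab1b cluster differed by 0.00. As deposited Rab1b overlapped, while 2 of 45 Rab members were wholly higher (4.44%) and 1 wholly lower (2.22%), beside 2.5% and 1.4% of all genes. With quantile normalization Rab1b was 1 of 3 Rab members wholly lower (2.56% of all genes), and with cyclic loess 1 of 4 (2.31%). Either of these scalings had 1 Rab member wholly higher, beside 2.26% and 2.54% of all genes. Transport motors had a median of 0.02 with 29 of 53 higher, led by Dynll1l2 (0.52 ± 0.25), a copy of a dynein light chain.

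Of 46 tested synaptic genes 15 had the higher mean in myr_Set, with a median of -0.06. Among its adhesion and scaffold proteins 4 of 18 were wholly lower in myr_Set (background 1.4%) and 0 wholly higher. Among its 28 vesicle and release genes none was apart as deposited. The 4 were Cadm3, given above, Gphn, Nlgn1 and Homer2. With quantile normalization the same 4 were apart, beside 2.56% of all genes, and with cyclic loess 3 without Cadm3, beside 2.31%. None of these 4 lay below an unadjusted p of 0.05. Of the vesicle and release genes 1, Syp, was wholly lower under both other scalings.

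Gephyrin (Gphn), the scaffold of inhibitory synapses, was 7.54, 7.43 and 7.52 in wt_Set and 6.49, 7.14 and 7.37 in myr_Set (-0.50 ± 0.26, or -0.24 without myr_Set array 1). Neuroligin 1 (Nlgn1), an adhesion protein of excitatory synapses, was 7.01, 7.19 and 6.93 against 6.52, 6.74 and 6.89 (-0.32 ± 0.21). Homer2, a scaffold of metabotropic glutamate receptors, was 7.05, 6.99 and 7.10 against 6.88, 6.72 and 6.81 (-0.24 ± 0.18). Nlgn1 and Homer2 lay below the passed-receptor median on all 6 arrays. Cadm1, a relative of Cadm3, was 7.93, 7.96 and 7.57 against 6.39, 7.19 and 7.96 (-0.64 ± 0.38, or -0.25 without myr_Set array 1) and overlapped. The vesicle protein Syp overlapped as deposited, at 9.85, 9.77 and 9.44 against 8.55, 9.38 and 9.51.

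Genes of excitability and transmission followed with medians of -0.08 for transmitter receptors (7 of 18 higher) and -0.03 for voltage-gated channels (18 of 40). Chrnb3, a nicotinic receptor subunit, was 9.54, 9.44 and 9.74 in wt_Set and 8.58, 9.28 and 9.55 in myr_Set (-0.44 ± 0.26, or -0.16 without array 1). It overlapped as deposited and was wholly lower with quantile normalization and with cyclic loess, beside 2.56% and 2.31% of all genes. The potassium channel Kcna2 had a difference of -0.22 ± 0.19. Immediate early genes had 4 of 13 higher and a median of -0.04, with Egr2 at -0.24 ± 0.16 and Fos at 7.24, 7.47 and 7.44 against 7.10, 7.32 and 7.62. Cadherins and protocadherins had a median of -0.01. No member of these 4 lists lay below an unadjusted p of 0.05, as for nearly all genes (0.39% below it).

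Neuropeptides had a median of -0.10 with 7 of 19 higher. Galanin, a peptide of injured neurons, stood out on the other side, at 8.73, 7.89 and 7.87 in wt_Set, 8.41, 8.94 and 9.78 in myr_Set and 9.60, 8.65 and 8.91 in mCherry. Its difference was 0.88 ± 0.40 (95% interval -0.04 to 1.79), and wt_Set array 1 overlapped with myr_Set array 1.

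Stress genes gave no list difference either. Stress and apoptosis had a median of -0.02 over 44 tested genes, made up of 0.05 for Bcl2 family and caspase genes (13 of 22 higher) and -0.09 for axon injury and the integrated stress response (6 of 22 higher). Cebpg, a partner of the stress factor Atf4, was 8.51, 8.14 and 8.14 in wt_Set and 7.28, 7.62 and 8.29 in myr_Set (-0.53 ± 0.30). Bcl2, which protects cells from apoptosis, was 7.28, 7.24 and 7.56 against 7.42, 7.52 and 8.31 (0.39 ± 0.25, or 0.11 without myr_Set array 3). The injury factor Atf3 was 8.62, 8.71 and 7.86 against 8.01, 8.25 and 8.56. All 3 overlapped as deposited. In that scaling Ddit4 and Casp2 (7.92, 7.79 and 7.91 against 7.52, 7.71 and 7.78) were the 2 of 44 members with groups apart, beside 3.9% of all genes. With quantile normalization Cebpg was wholly lower too (2.56% of all genes), and Aifm1, Ppp1r15a and Map3k13 were wholly higher (2.26%). With cyclic loess Cebpg was again wholly lower (2.31%) and Ppp1r15a wholly higher (2.54%), while Aifm1 and Map3k13 overlapped.

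Immune lists had medians of -0.01 for interferon and class I genes (14 of 38 higher, 3 wholly above) and -0.05 for NF-kB and cytokines (21 of 48, 2 wholly above), beside 2.5% of all genes wholly above. With either other scaling the interferon list had 2 members above and 2 below, Irf3 and Stat2. Of all genes, quantile normalization put 2.26% above and 2.56% below, and cyclic loess 2.54% and 2.31%. Irf3, which switches on interferon genes, was 7.96, 7.81 and 8.33 in wt_Set and 7.21, 7.39 and 7.97 in myr_Set (-0.51 ± 0.23). Il1b, an inflammatory cytokine, was 7.91, 8.58 and 8.34 against 6.15, 7.91 and 8.43 (-0.78 ± 0.57), a difference that was -0.11 without myr_Set array 1.

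The machinery of gene expression and energy supply showed wide bracketing. The proteasome list had array medians of 8.60, 8.85 and 8.81 in wt_Set and 7.93, 8.78 and 9.52 in myr_Set. Cytosolic ribosomal proteins had 9.32, 9.75 and 9.83 against 8.75, 9.90 and 10.36, and translation factors 8.57, 8.65 and 8.49 against 7.73, 8.71 and 9.22. Their median differences were -0.04, 0.01 and -0.01. The respiratory chain had 29 of 86 tested members higher and a median of -0.05, while mitochondrial ribosomal proteins had 44 of 66 higher and a median of 0.07. Mrps18a and Mrps12 were wholly higher, Mrpl44 was wholly lower (6.61, 6.80 and 7.04 in wt_Set, 6.56, 6.45 and 6.53 in myr_Set), and Mrpl41 differed by -0.52 ± 0.32. These 2 of 66 above (3.03%) and 1 below (1.52%) are close to the shares over all genes, 2.5% and 1.4%. Mrpl44 lay below the passed-receptor median on all 6 Set arrays.

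Splicing factors had 44 of 100 higher and a median of -0.05, and RNA polymerase II with Mediator 37 of 71 and 0.03. Nova1, a neuronal splicing factor, was 7.66, 7.61 and 7.49 in wt_Set and 7.81, 7.80 and 8.05 in myr_Set (0.30 ± 0.19) and did not overlap. Eif5a2, a translation factor, was 7.68, 8.10 and 7.86 against 7.23, 7.14 and 7.87 (-0.46 ± 0.22). Ubiquitin ligases (-0.02, 92 of 203 higher), zinc finger factors (0.00, 98 of 193) and heat shock and unfolded protein genes (0.01, 38 of 74) had medians close to that of all genes. As deposited 5 ubiquitin ligases were wholly lower (2.46%) and 2 wholly higher (0.985%), beside 1.4% and 2.5% of all genes. Either other scaling had 12 wholly lower (5.91%) and 2 wholly higher. Of all genes, quantile normalization put 2.56% below and 2.26% above, and cyclic loess 2.31% and 2.54%. Sterol synthesis had a median of 0.02, and its enzyme Fdps was 8.10, 7.76 and 7.61 against 7.53, 8.48 and 8.91 (0.48 ± 0.37).

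The ganglion cell markers had a median of -0.03 with 12 of 26 tested higher, and their array medians were 8.47, 8.33 and 8.06 in wt_Set and 7.64, 8.17 and 8.92 in myr_Set. Rbpms, a marker of all ganglion cells, was 9.32, 9.23 and 9.33 against 7.93, 9.34 and 10, and Thy1 9.65, 9.17 and 9.62 against 8.80, 9.21 and 9.63. Pou4f3, a ganglion cell transcription factor, was wholly lower at 7.05, 7.00 and 7.06 against 6.84, 6.59 and 6.57 (-0.37 ± 0.23), below the passed-receptor median on all 6 arrays, while its relative Pou4f2 overlapped.

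Markers of other cells did not separate the forms, but some differed between arrays of the same form. Endothelial, mural and fibroblast markers had 11 of 16 tested higher and array medians of 6.89, 7.40 and 7.61 in wt_Set and 7.03, 7.44 and 7.92 in myr_Set. Sparc, a matrix protein of such cells, was 7.12, 11.67 and 11.89 in wt_Set, 7.01, 11.80 and 12.54 in myr_Set and 7.17, 12.12 and 12.68 in mCherry. Tagln, a smooth muscle protein, was 7.34, 11.89 and 11.89 against 6.70, 12.01 and 12.59. In both genes array 1 of either form was low and arrays 2 and 3 high, so these transcripts divided the arrays by number and not by form. Of 30 glial and progenitor markers 16 were tested, with a median of 0.02. Vim, an intermediate filament of glia and of mural cells, was 7.84, 11.15 and 11.79 in wt_Set and 8.39, 11.42 and 12.04 in myr_Set. As deposited 1 of the 16, Notch1, was wholly higher by a narrow gap, beside 2.5% of all genes. Notch1 overlapped after quantile scaling and after cyclic loess scaling. The glial markers Gfap, Slc1a3 and Rlbp1 did not pass the filter. Microglial and macrophage markers had 11 of 19 tested higher and a median of 0.01, with differences from -0.97 to 0.40. Lyz2, which had the lowest of these differences, was 5.85, 8.55 and 7.91 in wt_Set and 4.76, 7.08 and 7.57 in myr_Set, and Fcer1g 8.12, 9.22 and 8.86 against 8.20, 9.09 and 9.77. Both overlapped between the forms.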

How the data were processed

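RNA amplified with a small-input whole-transcriptome kit was hybridised to Affymetrix Rat Gene arrays. Per the labels and the series' design text, the authors computed RMA values and normalized them to each sample's median. Expression Console and RMA are the tools in the submitters' processing notes. The deposited table holds linear intensity values for 36685 transcript clusters, with a median of 100 on each of the 9 arrays, which fixes the middle of an array and leaves its spread free. The number of arrays, 3 per group, limits the precision. The annotation paired 18511 clusters with 1 symbol, 575 with several and 17599 with none, and genes were named from the first kind only. Of the gene identifiers, 18394 matched the RefSeq table, used for names only.

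Intensities were log2-transformed in R 4.3.3 and fitted in limma 3.58.1 by lmFit and a two-sided eBayes test, as group means over all 9 arrays, with 6 residual degrees of freedom and 2.82 from the prior. Clusters with a mean below the median of cluster means (6.65) were left out. P-values were adjusted over 18343 clusters by the Benjamini-Hochberg method at 0.05. Differences are myr_Set minus wt_Set, on the log2 scale, with the fit's standard error, and 95% intervals are per gene. In data simulated for this comparison with 18343 clusters and independent noise, 22% of 100 changes of 1 log2 unit and 80% of 100 changes of 2 were recovered, with 8 false calls.

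Named genes were, per direction, the 15 with the largest moderated t and the 10 of the top 25% by level with the largest difference, among genes whose groups do not overlap and without nasal and taste receptors or locus names, together with up to 3 leading members and the member of highest level per list, Set relatives, phosphatase 2A genes and defining cell markers. The members and lists were chosen with earlier results of these data known. Lists are described by counts and medians, without a test. Settings tried were other normalizations, level filters, groups, moderation, array weights, an added constant of 16, the replicate number as a block and each array left out, and gene-by-gene array weights were added after seeing the data.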

Additional observations from a re-analysis of the deposited data

How the results depend on the processing

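The number of clusters past an adjusted p of 0.05 (limma) was 0 under all settings tried except array weights estimated by REML, which gave 1270, with 4514 at an unadjusted p below 0.05. That estimate did not converge and put a weight of 165.01 on myr_Set replicate 2, against 0.15 and 0.18 on replicates 1 and 3. Weights estimated gene by gene, an alternative chosen after seeing the data, gave a weight of 2.91 to the same array, 0 clusters past the adjusted p and 1055 at the unadjusted p.

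The 208 clusters at the unadjusted p became 749 without a filter on level, 70 after a filter at percentile 75 and 52 when clusters without a single symbol were dropped, settings that alter how many clusters enter the test. Leaving out 1 array moved it between 182 and 833, with 833 without myr_Set replicate 1 and 590 without replicate 3. Other settings gave 202 to 289. Over all tested clusters, the replicate numbers did not pair the Set arrays by the rule used. Deviations of same-numbered wt_Set and myr_Set arrays correlated at 0.26, 0.04 and 0.13, and 3 of 6 arrays correlated best with their own number. Same-numbered mCherry arrays gave 0.38, 0.02 and 0.27 with wt_Set, and -0.07, 0.02 and 0.24 with myr_Set. Some transcripts did divide the arrays by number: Sparc, Tagln and Vim were low on array 1 of every group. The replicate block gave 251 clusters at the unadjusted p, or 243 with only the 2 Set groups, and 0 past the adjusted p. Of 76 genes named with a difference, leaving out 1 array moved 39 by over 1.5 times. These were 16 without myr_Set replicate 1, 20 without replicate 3 and 13 without another array, where a gene can count more than once. The sign of Rtn4 changed as well (-0.72 to 0.04). List medians ran from -0.09 to 0.57 without myr_Set replicate 1 and from -0.35 to 0.08 without replicate 3. For single reversals and these shifts the cause was not tested.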
